A study of Mus musculus with 4 samples.

Results

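The matrix proteases and protease inhibitors described here are 9 genes: the metalloproteinases Mmp2, Mmp3 and Mmp14, the metalloproteinase inhibitors Timp1, Timp2 and Timp3, the plasminogen activators Plat and Plau, and the serpin Serpine2. The members were every probe set (a group of short probes read as 1 signal) annotated to 1 of these symbols alone, 21 of the 45101 probe sets on the array. They cover 8 of the 9 genes, since the annotation used here paired none with Serpine2, and it has no value below. Expression was measured in E14.1 mouse embryonic stem (ES) cells, with 1 Affymetrix array for each of 4 groups. The KO groups carried a deleted Sall4 allele over a null allele (delta/-, line KO1) and the HET groups a floxed allele over a null allele (flox/-, line HET18), so that 1 allele was null in all groups. Each line was cultured on blasticidin-resistant mouse fibroblast feeder cells and, without feeders, on a gelatin coating. The labels describe no step that removed feeder cells before RNA was taken. All 4 cultures also carried an IRES-blasticidin-resistance gene targeted to Oct3/4 and were kept in serum, leukaemia inhibitory factor (LIF) and blasticidin. Each genotype was 1 line, so line and genotype cannot be told apart and no spread within a group was measured. How precise a value is was limited by having 1 array for it.

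The cleavage of extracellular matrix depends on 2 families of secreted or membrane-bound proteases and on their inhibitors. Matrix metalloproteinases are zinc enzymes made as inactive precursors, and the tissue inhibitors of metalloproteinases (TIMPs) bind and block their active sites. Mmp14 is anchored in the cell membrane, where it activates the Mmp2 precursor with the help of Timp2. The plasminogen activators encoded by Plat and Plau cut plasminogen to plasmin, which degrades fibrin and activates other proteases. Fibroblasts secrete many of these proteins, and Plat is also a known product of parietal endoderm.

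The promoters of Mmp3, Mmp14, Timp1, Timp2 and Timp3 are shown because they are the tested genes with a window in the table used, and all 5 were higher on feeders. The 250 bases before each RefSeq start (GRCm38.p6) are given 5' to 3' on the gene's strand. Capitals mark matches, on either strand, to the AP-1 motif TGANTCA, the TATA box TATAAA, the GC box GGGCGG and the PEA3 motif AGGAAG, and no match overlapped another motif's. The windows lie at chr9:7445572-7445821, plus strand, for Mmp3, chr14:54431348-54431597, plus strand, for Mmp14, chrX:20869916-20870165, plus strand, for Timp1, chr11:118355412-118355661, minus strand, for Timp2 and chr10:86300162-86300411, plus strand, for Timp3.
Mmp3: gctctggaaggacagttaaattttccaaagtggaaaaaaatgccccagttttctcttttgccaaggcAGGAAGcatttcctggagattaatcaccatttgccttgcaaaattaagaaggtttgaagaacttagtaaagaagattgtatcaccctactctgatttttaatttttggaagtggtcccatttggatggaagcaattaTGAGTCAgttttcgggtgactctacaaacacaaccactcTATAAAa
Mmp14: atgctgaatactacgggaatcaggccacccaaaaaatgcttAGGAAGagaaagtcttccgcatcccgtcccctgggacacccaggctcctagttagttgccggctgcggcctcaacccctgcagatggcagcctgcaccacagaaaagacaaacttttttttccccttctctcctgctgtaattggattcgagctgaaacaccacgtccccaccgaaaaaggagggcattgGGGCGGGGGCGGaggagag
Timp1: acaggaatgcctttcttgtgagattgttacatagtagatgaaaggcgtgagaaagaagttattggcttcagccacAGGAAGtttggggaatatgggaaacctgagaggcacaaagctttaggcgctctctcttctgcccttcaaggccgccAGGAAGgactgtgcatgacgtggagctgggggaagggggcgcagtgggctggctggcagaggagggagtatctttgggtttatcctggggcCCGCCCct
Timp2: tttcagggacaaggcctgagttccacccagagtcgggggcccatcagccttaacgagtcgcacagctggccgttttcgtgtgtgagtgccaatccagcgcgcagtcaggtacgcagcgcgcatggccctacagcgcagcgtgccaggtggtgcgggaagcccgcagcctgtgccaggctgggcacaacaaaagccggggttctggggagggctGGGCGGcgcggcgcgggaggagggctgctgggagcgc
Timp3: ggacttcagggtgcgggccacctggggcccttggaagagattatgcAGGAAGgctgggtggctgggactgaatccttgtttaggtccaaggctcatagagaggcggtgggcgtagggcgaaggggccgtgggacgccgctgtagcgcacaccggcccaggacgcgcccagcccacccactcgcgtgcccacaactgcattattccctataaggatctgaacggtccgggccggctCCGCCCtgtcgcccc
Mmp3 was the 1 gene of these 5 with an AP-1 match, which 6.75% of 32851 RefSeq promoter windows of this length hold, and the 1 with a TATA box, held by 12.4%. Its AP-1 match ended 40 bases before the start and its TATA box match 2 bases before it, both counted from the RefSeq start used. A GC box, held by 32.7% of windows, was found in Mmp14 and in all 3 Timp promoters, but not in that of Mmp3. The PEA3 motif, held by 29.5%, matched in all but Timp2. A match describes the letters and is not a measured binding site.

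Signals are the linear MAS5 values of the deposited table. Fold changes and log2 differences were taken after adding 4.6 to each signal, the 25th percentile of all signals, so folds of weak signals are drawn towards 1. Where a gene had several probe sets the brightest by mean log2 signal stood for it, and the gene was tested where that mean passed a filter equal to a signal of 9.46. Of the 9 genes 7 were tested, and 17 of the 21 probe sets lay above the filter. On the 4 arrays the median signal lay between 16.1 and 18. The ES cell markers Pou5f1, Nanog and Sox2 were bright on all arrays, with Pou5f1 at 1187 in KO and 1112 in HET cells on feeders, against 977 in KO and 1284 in HET cells without feeders. Sall4 itself was brighter on the arrays labelled KO, 1.86-fold on feeders and 1.48-fold without them by its brighter probe set and 2.40-fold and 2.54-fold by the other. The labels do not say which part of Sall4 was deleted, so the direction of each genotype difference rests on the labels, and KO below means the arrays labelled null.

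The first comparison asked what feeders changed. Mmp3, Timp3, Mmp2, Timp2, Plat and Timp1 rose on feeders by the limma test over all genes (6 of 7 tested, all upward), where 3.88% of the 12485 genes tested were called higher and 0.881% lower. The members were chosen with earlier results of these data known, and Mmp3 passed the filter through its signals on feeders. The count and the shares thus stand side by side as a description, with no test of the set. The 7 genes were higher on feeders in both genotypes, and the share of all genes that were so was not counted. Their median log2 difference was 1.57 in KO and 2.96 in HET cells, against 0.04 and 0.03 over all genes tested. The fibroblast markers listed for the feeder cells moved with the 7 genes, and 28 of 29 tested markers rose. In 13 of the 29 the signal without feeders was under the filter signal on 1 or both arrays, so their signals on feeders helped them pass the filter. The summed signal of the 29 markers was 27982 in KO and 20860 in HET cultures on feeders, against 3084 in KO and 1888 in HET cultures without feeders. Fn1 alone gave 1835 in KO and 1351 in HET of the sums without feeders. None of these markers was at 0 on any array, but neither was any gene of the other lists, such as Plau at 0.5 to 6.9. A signal above 0 thus does not show that a marker was present. In HET cultures without feeders Postn read 1.4 and Col1a1 1.5. The part of feeder cell RNA in the results below was not tested, and in such mixed cultures fewer cells of a type and less RNA per cell cannot be told apart. Each test rests on 1 residual degree of freedom, which is the gene's difference between the genotype effects in the 2 culture conditions.

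**Figure D1:**
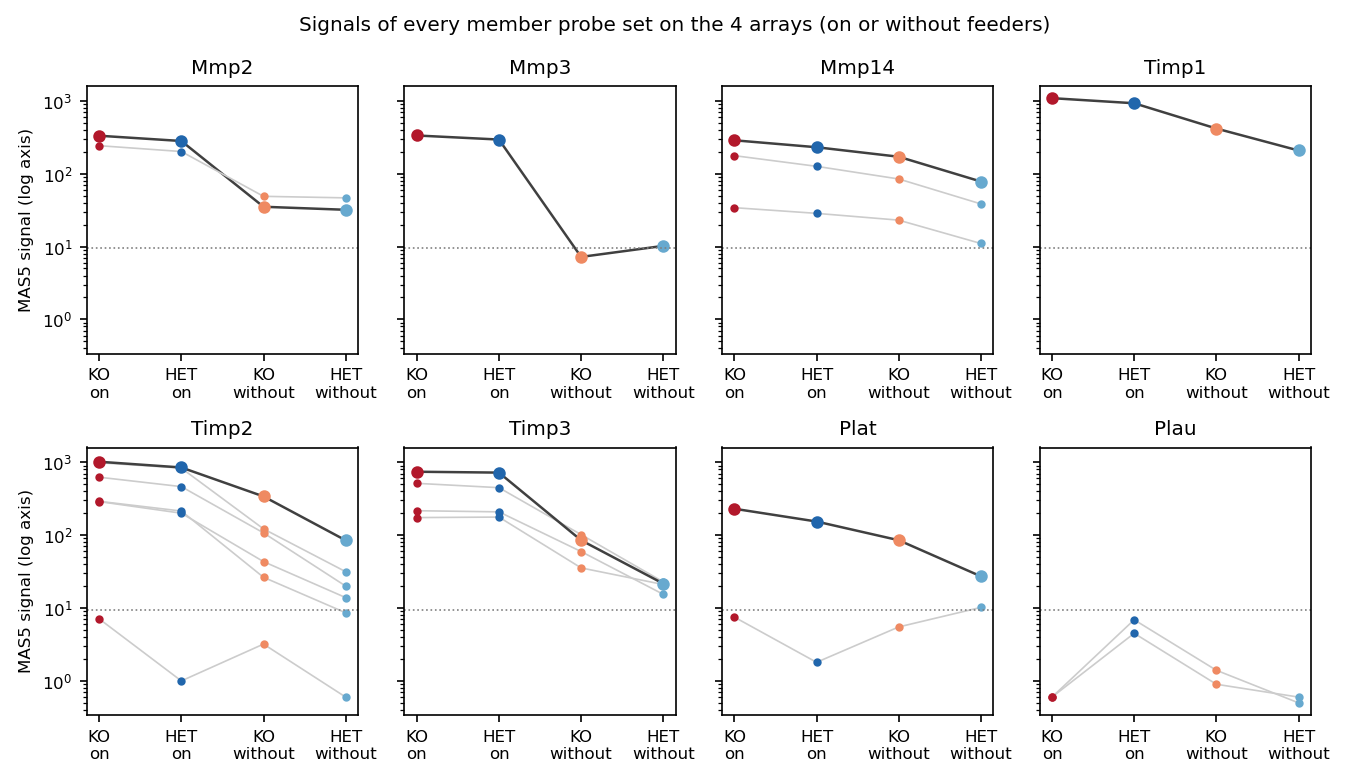
MAS5 signal (vertical log axis) of every probe set of 8 genes on the 4 arrays, 1 array per group, in the order KO and HET on feeders, then KO and HET without feeders, with a line per probe set (dark for the one that stands for the gene) and the filter signal of 9.46 dotted. Mmp3 sits at 333 and 293 on feeders and at 7.2 and 10.2 without them, while Plau stays under the filter signal on all arrays.

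Among the metalloproteinases, Mmp3 (stromelysin-1), which cleaves proteoglycans and fibronectin and activates other precursors, had the largest feeder difference of the 7 genes. It read 333 in KO and 293 in HET cultures on feeders, against 7.2 in KO and 10.2 in HET cultures without feeders. Both arrays without feeders were at about the filter signal, so that Mmp3 passed the filter through its signals on feeders. Set against the filter signal where the measured one was lower, Mmp3 was at least 24.0-fold higher on feeders in KO and 20.1-fold higher in HET cells (limma adjusted p = 9.55e-04 for the fitted log2 difference of 4.59, SE 0.23, which rests on the measured signals).

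Mmp2 (gelatinase A), which cleaves denatured collagen and collagen IV, read 331 in KO and 280.1 in HET cultures on feeders, against 35.1 in KO and 31.9 in HET cultures without feeders. The 2 arrays on feeders were far above the 2 without, and within each condition the genotypes lay close together. The feeder difference was 3.02 (SE 0.18, limma adjusted p = 0.00162), an 8.45-fold change in KO and 7.80-fold in HET cells. The other Mmp2 probe set read 242 and 201 in KO and HET cultures on feeders, against 48.8 and 46.5 in KO and HET cultures without feeders.

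Mmp14, the membrane-type activator of the Mmp2 precursor, read 286.5 in KO and 230.1 in HET cultures on feeders, against 170.4 in KO and 77.9 in HET cultures without feeders. Its log2 difference of 1.12 (SE 0.23) did not pass (limma adjusted p = 0.0585). The fold was 1.66 in KO and 2.84 in HET cells, so Mmp14 was also the 1 tested gene of the 7 that was not at least 2-fold higher in both genotypes. All 3 of its probe sets were higher on feeders in both genotypes, by 1.40-fold to 3.03-fold. With every probe set of the array tested, the adjusted p of the brightest was 0.0401.

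Of the inhibitors, Timp3 had the largest feeder difference. Timp3, which binds to the matrix and inhibits both metalloproteinases and several ADAM proteases, read 740.3 in KO and 720.2 in HET cultures on feeders, against 85.0 in KO and 21.6 in HET cultures without feeders. The difference was 3.92 (SE 0.40, limma adjusted p = 0.00758), with 8.31-fold in KO and 27.7-fold in HET cells. Its 4 probe sets were 3.44-fold to 8.31-fold higher on feeders in KO cells and 7.09-fold to 27.7-fold higher in HET cells, so the size depended on the probe set and the direction did not.

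Timp2, the inhibitor that also takes part in the activation of the Mmp2 precursor, read 1015 in KO and 847 in HET cultures on feeders, against 339.5 in KO and 84.8 in HET cultures without feeders. The KO array without feeders lay between the arrays on feeders and the HET array without them. The difference was 2.41 (SE 0.38, limma adjusted p = 0.0278). The probe set that read the gene gave 2.96-fold in KO and 9.53-fold in HET cells, the lowest folds among the 5 Timp2 probe sets above the filter, and the other 4 gave 5.61-fold to 9.53-fold in KO and 11.0-fold to 23.1-fold in HET cells. A sixth Timp2 probe set stayed at signals of 0.6 to 7.1 and was not usable.

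Timp1, a secreted inhibitor that also promotes cell growth, read 1084 in KO and 923 in HET cultures on feeders, against 415 in KO and 208 in HET cultures without feeders. The arrays fell in the same order as for Timp2, with a narrower range. Timp1 rose by 1.75 on the log2 scale (SE 0.20, limma adjusted p = 0.0111), or 2.59-fold in KO and 4.37-fold in HET cells.

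Of the plasminogen activators, Plat (tissue-type) read 230 in KO and 154 in HET cultures on feeders, against 85.1 in KO and 27.2 in HET cultures without feeders. The difference was 1.85 (SE 0.27, limma adjusted p = 0.0216), with 2.61-fold in KO and 4.97-fold in HET cells. With the mean of its probe sets the difference was 0.69 (limma adjusted p = 0.161), and without the HET array of the cultures without feeders it was 1.10 (limma adjusted p = 0.145). A weak second Plat probe set, at 7.5 and 1.8 in KO and HET cultures on feeders, against 5.5 and 10.2 in KO and HET cultures without feeders, lay under the filter and did not follow the first. Plau (urokinase-type) stayed between 0.5 and 6.9 on both of its probe sets and all 4 arrays, under the filter signal, and was not tested. The highest Plau signals, 6.9 and 4.5, were both on the HET array with feeders, against 0.6 for both probe sets on the KO array with feeders. Signals this low say nothing of a difference.

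These calls depended on the settings. With the filter at the 60th percentile 4 of the 7 genes passed (Plat and Timp2 lost). Without a filter Plau was tested as well, and the same 4 of 8 genes passed. With the mean of a gene's probe sets 5 of the 7 passed (Plat lost). Without the variance trend 2 of the 7 genes passed (Mmp2 and Mmp3), with a model of 1 factor 3 passed (Mmp2, Mmp3 and Timp3), leaving out the KO array on feeders left 1 (Mmp3) and leaving out the HET array on feeders left 2 (Mmp2 and Mmp3). The fits without 1 array used the model of 1 factor, which leaves the other factor unbalanced. By size alone, with no test, 6 of the 7 were at least 2-fold higher on feeders in both genotypes with the brighter array above the median signal of 17.1, as were 3.96% of genes tested (0.529% were lower by that rule). At 3-fold 3 of the 7 were higher, and the share of all genes at 3-fold was not counted.

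The second comparison asked how KO cells differed from HET cells. No protease or inhibitor passed the limma test over all genes in this comparison (0 of 7), where 0% of all genes tested were called higher and 0.032% lower. At an unadjusted p under 0.05, Mmp14, Timp1, Timp2 and Plat were higher in KO cells (4 of 7), as were 5.8% of genes tested, with 6.5% lower. By the size rule 0 of 7 were at least 2-fold different in both conditions, against 0.328% of genes higher and 0.785% lower. The fitted log2 differences, KO minus HET, were 1.10 for Timp2 (SE 0.38), 1.03 for Plat (SE 0.27), 0.91 for Timp3 (SE 0.40), 0.70 for Mmp14 (SE 0.23) and 0.61 for Timp1 (SE 0.20), with limma adjusted p-values between 0.254 and 0.441. Those of Mmp2 and Mmp3 were 0.18 (SE 0.18) and -0.07 (SE 0.23).

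The values fell into 2 patterns in the cultures without feeders, each from 1 KO and 1 HET array. Timp2 was 3.85-fold, Timp3 3.42-fold, Plat 2.82-fold, Mmp14 2.12-fold and Timp1 1.98-fold higher on the KO array, while Mmp2 was 1.09-fold and Mmp3, with signals near the filter, 0.80-fold its HET value. At least 2-fold higher in KO without feeders were 4 of the 7 genes and 4.21% of all genes tested, of which 3.26% were at least 2-fold lower. Above 1 were 6 of the 7 genes and 50.2% of all. On feeders the same ratios of KO to HET lay between 1.03 (Timp3) and 1.48 (Plat), and 0 of 7 reached 2-fold, as did 1.52% of genes tested, with 2.21% at least 2-fold lower. All 7 were above 1 on feeders, where 51% of genes were.

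The probe sets above the filter pointed the same way within each gene without feeders. The 5 usable Timp2 probe sets were 2.35-fold to 4.55-fold higher in KO cells without feeders, the 4 of Timp3 1.57-fold to 3.88-fold and the 3 of Mmp14 1.77-fold to 2.12-fold. Both Mmp2 probe sets lay at 1.05-fold to 1.09-fold. Of the 17 probe sets above the filter, 14 had a higher signed KO minus HET difference without feeders than on feeders, and the other 3 were those of Mmp2 and Mmp3. The 14 were repeat readings of Timp2 (5), Timp3 (4) and Mmp14 (3), with 1 each of Timp1 and Plat, on the same 4 arrays. They are not separate observations, and the share of all genes with this sign was not counted. Set against each other, the log2 difference on feeders minus that without was -1.73 for Timp3, -1.68 for Timp2, -0.93 for Plat, -0.77 for Mmp14 and -0.75 for Timp1, against 0.12 for Mmp2 and 0.51 for Mmp3. Such a value of -1 or lower occurred in 4.92% of genes tested and one of 1 or higher in 3.4%, and with 1 array a group it has no test.

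**Figure D2:**
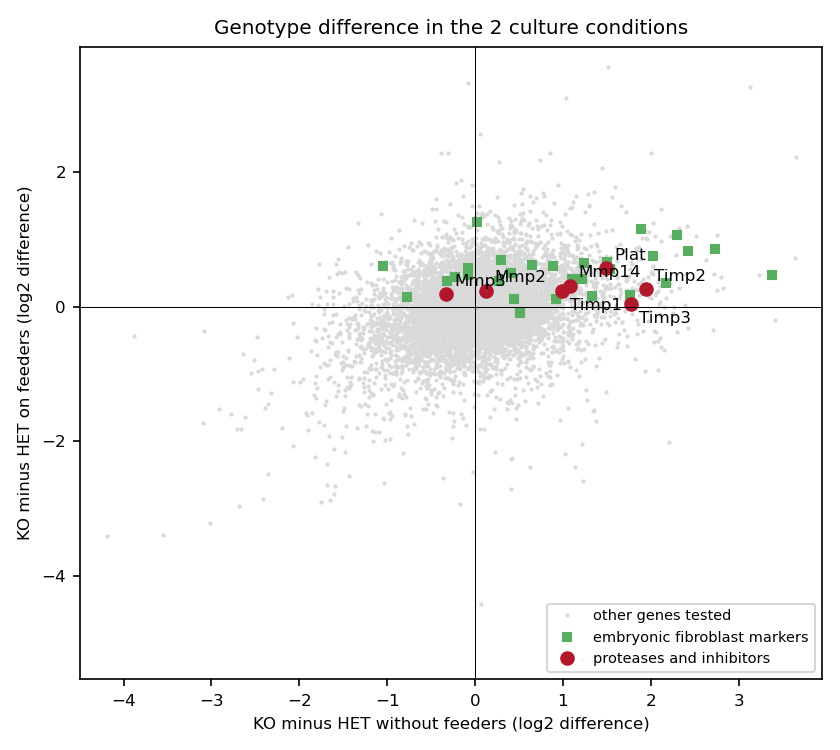
Log2 difference KO minus HET without feeders (horizontal axis) and on feeders (vertical axis) for each gene tested, from 1 array per group, with the 7 genes as red circles, fibroblast markers as green squares and all others as grey dots. Timp2, Timp3, Plat, Mmp14 and Timp1 lie right of 0, at 0.98 to 1.94 without feeders, and Mmp2 and Mmp3 lie near 0, at 0.12 and -0.33.

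Fibroblast markers were read in the same comparison. None of the 29 tested passed the limma test over all genes, and 17 were higher in KO at an unadjusted p under 0.05 (0 lower). Over all genes tested 5.8% were higher and 6.5% lower at that threshold. Without feeders, 14 of the 29 were at least 2-fold higher on the KO array, as were 4.21% of all genes tested, and 6 were lower than on the HET array. The log2 differences of the 29 ran from -1.05 (Cthrc1) to 3.38 (Col3a1), with a median of 0.92, against 0.00 over all genes tested. In 13 of the 29 the signal without feeders was under the filter signal on 1 or both arrays. Of the 5 fibrillar collagen genes on the list, Col3a1 read 244 in KO and 19.2 in HET cultures without feeders, Col5a2 215 and 44.3, Col5a1 101 and 75.0, Col1a1 36.0 and 1.5 and Col1a2 36.2 and 38.4, so that 4 were higher in KO and Col1a2 lay close in both. On feeders the median was 0.50. The markers of primitive and parietal endoderm, which include known sources of Plat, had a median of 0.03 without feeders and -0.14 on feeders over 16 tested genes, with 3 higher and 3 lower in KO at an unadjusted p under 0.05. They went both ways without feeders, from a log2 difference of 2.09 for Fst, at 191 in KO and 41.5 in HET cultures, to -0.93 for Cubn, at 25.6 and 53.1. Gata4 lay at 0.06, Col4a1 at 0.77, Lamb1 at 0.79 and Dab2 at 0.81, against -0.42 for Lama1 and -0.05 for Sox17. Of the 16 markers 7 were below 0. The ES cell markers were lower in KO without feeders, 12 of 12 tested under the deposited scaling, median centring and quantile normalization, with a median of -0.31 as deposited. Over all genes tested 50.2% were higher in KO there, and the smallest difference of the 12 was -0.0057 for Dppa5a. On feeders 6 of the 12 ES cell markers were higher in KO, with a median of -0.09. None of the 12 passed the limma test over all genes, and 6 were lower in KO at an unadjusted p under 0.05. Fgf4 differed most, at 103 in KO and 400.5 in HET cultures without feeders. Macrophage markers summed to 123 in KO and 152 in HET cultures without feeders. The part of any of these cell types in the genotype differences was not tested.

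The signal without feeders, taken as a percentage of the signal on feeders in the same line, describes how much of each gene's signal was found in the absence of feeder cells. For Mmp3 it was 2.16% in KO and 3.48% in HET cells and for Mmp2 10.6% and 11.4%. Timp3 stood at 11.5% in KO and 3.00% in HET cells and Timp2 at 33.4% and 10.01%. Plat stood at 37.0% in KO and 17.7% in HET cells, Timp1 at 38.3% and 22.5% and Mmp14 at 59.5% and 33.9%. A share is a ratio of signals without the offset, and is read only where both signals without feeders were above the filter signal, which leaves out Mmp3 and 13 of the 29 fibroblast markers. Over the other 16 markers the median was 9.18% in KO and 5.62% in HET cells, with ranges of 1.44% to 66.7% in KO and 0.964% to 63.5% in HET cells. The share was higher in KO cells for 5 of the 6 genes so read and for 8 of the 16 markers. Without that rule it was higher in KO for 5 of the 7 genes and 19 of the 29 markers. The count of markers thus depended on which weak signals were left out. How many of all genes tested had a higher share in KO cells was not counted. A higher share in KO restates, without the offset, a higher signed KO minus HET difference without feeders than on feeders. It comes from the same arrays, so these counts are not a further observation.

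**Figure D3:**
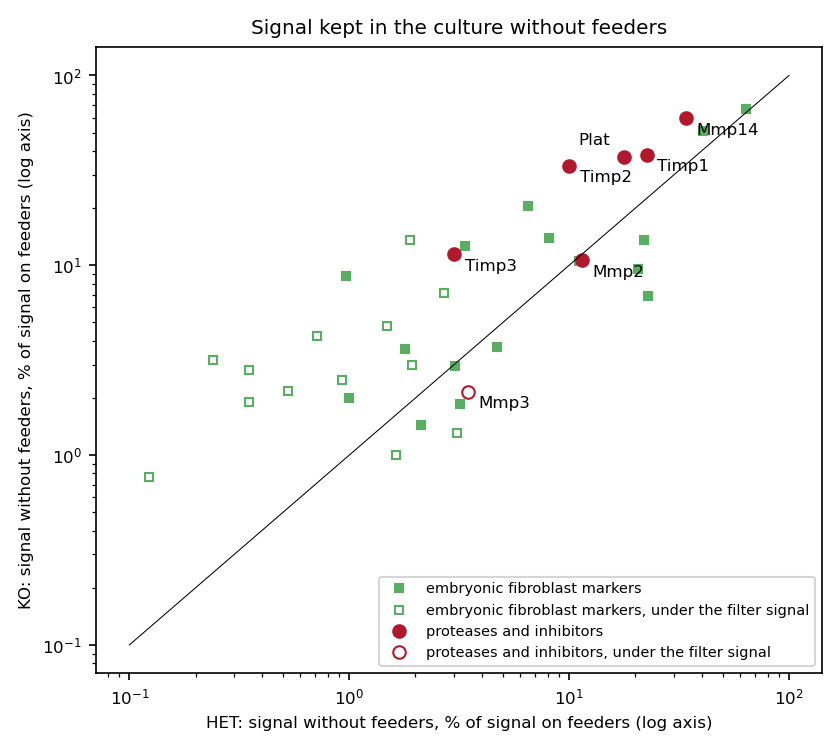
Signal without feeders as a percentage of the signal on feeders, in KO (vertical log axis) against HET cells (horizontal log axis), for 7 protease and inhibitor genes and 29 fibroblast markers, with the line of equal shares and open symbols where a signal without feeders was under the filter signal. Mmp2 lies just under the line and Timp1, Timp2, Timp3, Plat and Mmp14 above it, Timp2 at 33.4% in KO and 10.01% in HET cells.

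The genes whose 4 log2 values, each centred on its own mean, lay nearest to those of a member were Col6a1 for Mmp3 (Euclidean distance 0.457), Col8a1 for Timp3 (0.168), Svep1 for Mmp2 (0.27), Nrp1 for Timp2 (0.24), Cavin3 for Plat (0.129), C1qtnf2 for Timp1 (0.0969) and Hs6st2 for Mmp14 (0.0906). Col6a1 and Col8a1 encode collagen chains and Nrp1 the receptor neuropilin-1. The profile of Col8a1 was 526 in KO and 548 in HET cultures on feeders, against 67.9 in KO and 13.7 in HET cultures without feeders. Svep1, C1qtnf2 and Cavin3 had signals without feeders under the filter signal on 1 or both arrays. With 4 arrays such likeness is a description of these libraries.

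Other protease genes were read beside these by lists. In each of the 6 lists the median feeder difference was above the 0.03 of all genes tested and below the 2.41 of the 7 genes described. Of the other metalloproteinases, 8 of 20 listed genes were tested, 2 rose on feeders by limma, 0 fell and 6 did not pass, with a median of 0.89, or 0.62 with signals under the filter set to it. Where a signal without feeders was under the filter signal, the gene passed the filter through its arrays on feeders, and its fold is given as a lower bound against the filter signal, the smaller of the KO and HET bounds. Mmp13, a collagenase, read 65.9 in KO and 55.7 in HET cultures on feeders, against 1.6 in KO and 0.5 in HET cultures without feeders (at least 4.29-fold higher on feeders, limma adjusted p = 0.00512). Mmp23 rose by 1.56 (SE 0.24, limma adjusted p = 0.0276). Mmp9 (gelatinase B), the counterpart of Mmp2, read 18.4 in KO and 13.4 in HET cultures on feeders, against 67.3 in KO and 23.2 in HET cultures without feeders, a difference of -1.14 that did not pass (limma adjusted p = 0.133).

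Among further inhibitors and collagen-processing partners, 3 of 6 tested genes rose on feeders and 0 fell. They were Pcolce, which enhances procollagen cleavage (1.48, SE 0.11), the procollagen protease gene Tll1 (at least 4.5-fold) and Reck, a membrane-anchored metalloproteinase inhibitor (1.06, SE 0.18), with limma adjusted p-values of 0.0032 to 0.0333. Of 19 tested ADAM and ADAMTS genes, 4 rose and 0 fell: Adamts5 by 2.22 and Adamts1 by 1.84 on the log2 scale, Adamts12 at least 2.49-fold and Adam12 at least 2.36-fold, with limma adjusted p-values of 0.0131 to 0.0444. Adamts1 and Adamts5 encode proteases of matrix proteoglycans. Adamts5 read 115 in KO and 118 in HET cultures on feeders, against 38.9 in KO and 11.0 in HET cultures without feeders.

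In the rest of the plasminogen system 4 of 10 tested genes rose and 1 fell. The genes that rose were Thbd (thrombomodulin) by 2.86, Lrp1, an endocytic receptor that clears protease-inhibitor complexes, by 2.23 and the thrombin receptor gene F2r by 0.74 on the log2 scale, and Tfpi2, a serine protease inhibitor, at least 3.18-fold, with limma adjusted p-values of 0.00536 to 0.0455. Plaur, the receptor of urokinase, was the gene that fell: it read 77.9 in KO and 115 in HET cultures on feeders, against 441 in KO and 287 in HET cultures without feeders (log2 difference -1.86, SE 0.29, limma adjusted p = 0.0278). Markers of trophectoderm fell as well, 4 of 7 tested, where 0.881% of all genes tested were called lower. Eomes, Hand1 and Tfap2c did not pass, and Tfap2c was higher on feeders (log2 difference 0.46). The summed marker signal was 899 in KO and 1241 in HET cultures on feeders, against 2766 and 2689 in KO and HET cultures without feeders. Krt8 gave 933 in KO and 847 in HET of the sums without feeders, and Krt18 1284 and 1087. The part of these markers in the Plaur difference was not tested. Plg, which encodes plasminogen itself, stayed between 0.5 and 4.2.

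Of 15 other serpins and matrix serine proteases 4 rose and 0 fell: Fap, a fibroblast surface protease that is also on the marker list, at least 13.2-fold, and Serpinf1 by 4.55, Htra1 by 1.06 and Serpinb6a by 0.80 on the log2 scale, with limma adjusted p-values of 6.56e-04 to 0.0457. Of 13 tested cathepsins and cystatins 6 rose and 0 fell: the collagen-degrading Ctsk at least 5.16-fold (limma adjusted p = 0.00638), Ctso at least 3.23-fold, and Ctsb by 1.49, Ctsh by 1.26, Ctsd by 0.82 and Ctsz by 0.68 on the log2 scale. Ctsk read 123.5 in KO and 68.0 in HET cultures on feeders, against 1.9 in KO and 3.3 in HET cultures without feeders.

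**Figure D4:**
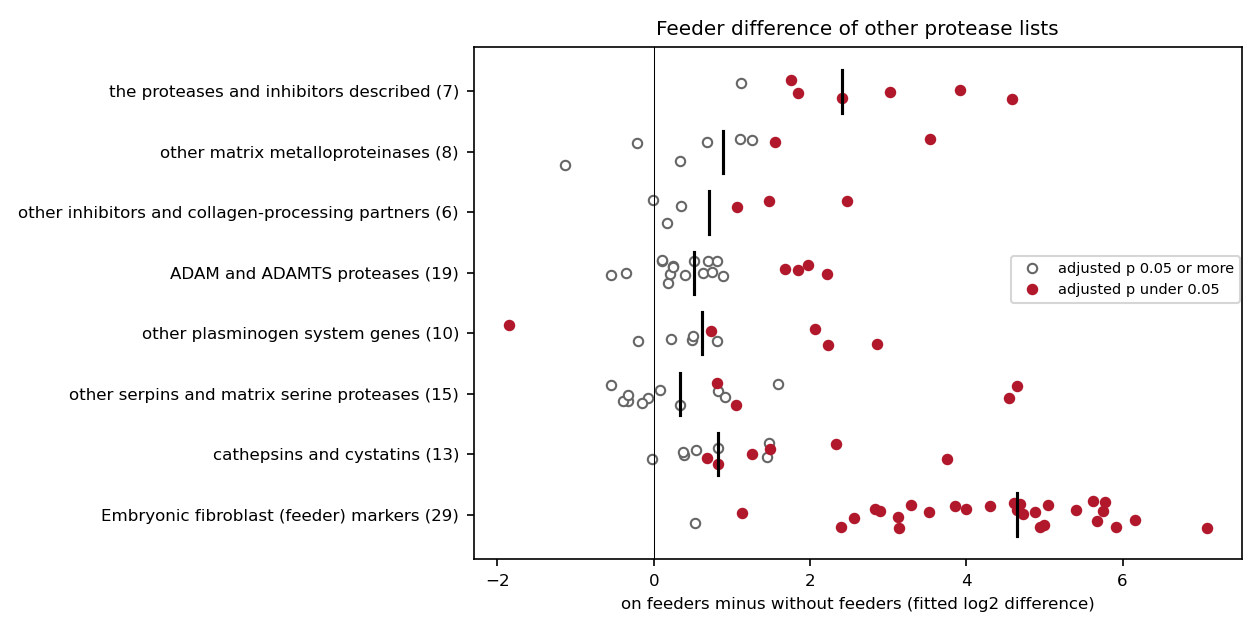
Fitted log2 difference, on feeders minus without feeders, of each tested gene in the 7 genes described, 6 lists of other protease genes and the fibroblast markers, with the number tested in brackets. Filled points passed the limma test over all genes, and black bars are list medians, which run from 0.34 for other serpins and serine proteases to 2.41 for the 7 genes and 4.65 for fibroblast markers (4.30 with signals under the filter set to it).

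Between genotypes 0 genes of these 6 lists passed the limma test over all genes. At an unadjusted p under 0.05, the genes higher in KO were 1 of 8 other metalloproteinases, 2 of 6 inhibitors and partners, 3 of 19 ADAM and ADAMTS genes, 2 of 10 plasminogen system genes, 3 of 15 serpins and serine proteases and 1 of 13 cathepsins and cystatins, and 2 plasminogen system genes and 2 serpins or serine proteases were lower. Over all genes tested 5.8% were higher and 6.5% lower at that threshold. The largest fitted differences, KO minus HET, were 1.56 for the surface peptidase gene Dpp4, 1.46 for Adam12, 1.19 for Anxa2 (annexin A2, a surface partner of plasminogen and Plat), 0.96 for Prss23, 0.88 for Serpinh1 (a collagen chaperone) and 0.86 for Mmp9, against -0.97 for Tfpi (tissue factor pathway inhibitor) and -0.96 for A2m. Adam12 read 79.1 in KO and 36.5 in HET cultures on feeders and 30.8 in KO and 4.9 in HET cultures without feeders. Adam12 and Dpp4 were at least 2-fold higher in KO in both conditions, as were 0.328% of genes tested by the size rule. Anxa2 read 2031 in KO and 1408 in HET cultures on feeders and 2269 in KO and 630 in HET cultures without feeders. In the remaining lists the largest were 0.68 for Pcolce and 0.34 for Ctso.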

How the data were processed

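Total RNA from 4 cultures was hybridised to 1 Affymetrix array each. The deposited values are linear MAS5 signals (array intensity), per the submitters' processing notes, which give no version, with no detection calls. The 2% trimmed mean was 100 on each array as deposited, so no scaling was added. Of 45101 probe sets, 64 controls were left out, 34945 had 1 symbol, 932 several and 9160 none in the annotation used, and those with 1 symbol named 18193 genes.

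The log2 of each signal plus 4.6 was taken, and genes with a mean under the 40th percentile of probe sets (log2 3.81) were left out. The 12485 genes kept entered 1 additive model of genotype and feeders (limma 3.58.1 under R 4.3.3, with a variance trend), two-sided, with Benjamini-Hochberg adjustment over all genes and a threshold of 0.05. The residual had 1 degree of freedom and the prior 4.75. The p-values rest on the spread between these 4 arrays and across genes, not between replicate cultures. The model was tested on simulated data: it returned the simulated differences, with more false calls than its nominal rate, and missed most of the changed genes at the smallest size simulated (2-fold) but few at larger ones, so a difference near 2-fold that did not pass is not shown to be absent. The alternatives are in the closing section.

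Named genes were all members, genes of each list past the threshold or else with the largest differences, and the nearest profile per member. The members and lists were chosen with earlier results of these data known. Promoter windows were available for 6 of the 9 genes.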

Additional observations from a re-analysis of the deposited data

Results flagged for a closer look

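Mmp3 and 1 of the 4 Timp3 probe sets differed between genotypes in opposite directions in the 2 culture conditions, each from 1 array per group, and the difference was not tested. For Mmp3 the log2 difference, KO minus HET, was 0.18 on feeders and -0.33 without feeders, with both signals without feeders near the filter signal. For that Timp3 probe set, which read 174 in KO and 177 in HET cultures on feeders and 35.5 in KO and 21.0 in HET cultures without feeders, it was -0.022 on feeders and 0.65 without feeders, while the other 3 Timp3 probe sets were above 0 in both.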

How the results depend on the processing

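Mmp3 kept its call by feeders under each of the 14 alternatives run, and the feeder difference of the 7 genes stayed above 0 in all of them. Over the 10 alternatives that kept all arrays, 57 of 70 single-gene feeder results kept their side of the threshold, 12 lost it and 1 gained it (Mmp14 with every probe set tested). With all arrays kept, the number of the 7 genes called by feeders, 6 in the main analysis, was 3 with 1 factor, 2 without the variance trend, 4 with the filter at the 60th percentile, 4 without a filter (where Plau was tested as well), 5 with the mean of probe sets and 7 with every probe set tested. The calls by size fell to 3 at 3-fold. The number of genes called over the array, 595 in the main analysis, was 268 with the filter at the 60th percentile, 269 without a filter, 384 with the mean of probe sets, 231 with 1 factor and 183 without the variance trend. With every probe set tested, 1354 of 22986 were called, a count of probe sets and not of genes. Genes called by genotype over the array, 4 in the main analysis, were 7 with quantile normalization, 7 with median centring, and 0 with the 60th percentile filter, without a filter, with 1 factor or without the trend. With every probe set tested, 14 probe sets were called by genotype. In none of these alternatives was any of the 7 genes called by genotype. The cause of these shifts was not tested. An offset at the median signal turned the Mmp3 genotype difference to 0.0037. Leaving out 1 array needed the 1-factor model, which leaves the other factor unbalanced and so mixes it into the difference by construction. Without 1 array, 1 to 7 of the 7 genes were called by feeders (1 without the KO array on feeders, 2 without the HET array on feeders, 5 without the HET array and 7 without the KO array of the cultures without feeders), with 23 to 534 genes over the array, and 0 to 0 by genotype. The feeder differences then ran from 0.58 to 1.66 for Mmp14, 2.90 to 3.14 for Mmp2, 4.42 to 4.75 for Mmp3, 1.10 to 2.60 for Plat, 1.26 to 2.24 for Timp1, 1.44 to 3.38 for Timp2 and 3.04 to 4.81 for Timp3, each lowest without the HET array of the cultures without feeders except those of Mmp2 and Mmp3. The genotype differences then ran from -0.056 to 1.45 for Mmp14, -1.36 to 1.72 for Mmp2, -2.49 to 2.35 for Mmp3, -0.13 to 2.19 for Plat, -0.46 to 1.67 for Timp1, -0.52 to 2.73 for Timp2 and -1.49 to 3.30 for Timp3. No paired analysis was possible because each group had 1 array and the labels give no replicate numbers. Signals near the filter, as for Plau and for Mmp3 without feeders, limit what can be said of those genes.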
